A study of Mus musculus with 46 samples.

Results

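The last day of a 72 h exposure to 100% oxygen was compared between wild type and Nrf2 mutant mouse lung. For each genotype the step from 48 to 72 h was taken as the difference in log2 intensity, and the wild type step was subtracted from the mutant step. The 24 arrays of the 4 groups wild type 48 h, wild type 72 h, mutant 48 h and mutant 72 h were chosen by their titles, out of 46 arrays in the whole series. Every group was lung tissue from mice kept in 100% oxygen, and each had replicates 1a and 1b on array types A, B and C. The mutant mice are described as mutated in Nrf2. The labels give no strain, sex, age or mutant allele, and whether 1a and 1b came from different animals is not said. Each p-value therefore measures only the spread between these samples, which may be technical. The tissue was whole lung, so fewer cells of a type and less RNA per cell cannot be told apart.

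The protein NRF2 (gene Nfe2l2) activates transcription, and the adaptor KEAP1 keeps its level low until oxidants or electrophiles modify KEAP1. NRF2 then pairs with small MAF proteins and binds antioxidant response elements in front of genes for glutathione synthesis, NADPH supply and detoxification. Prolonged breathing of pure oxygen injures the thin alveolar epithelium and the capillary endothelium, and fluid and inflammatory cells enter the airspace.

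The deposited values are linear intensities, and the authors had scaled every array to nearly the same trimmed mean. Intensities are printed as deposited, replicate 1a first. Differences are in log2 units of the intensity plus a constant, the 25th percentile of its array type (76.2 for A, 121 for B, 105 for C), which shrinks the folds of dim probe sets. The replicate arrays of a group correlated at 0.957 to 0.971 for type A, at 0.943 to 0.956 for type B and at 0.9 to 0.91 for type C. The ratio of the 3′ to the 5′ Gapdh control lay between 0.858 and 1.27. Nfe2l2 read 3338 and 4488 in wild type at 48 h and 3319 and 4231 at 72 h. In the mutant it read 388 and 404 at 48 h and 376 and 318 at 72 h. All mutant arrays lay below all wild type arrays at both times, in the direction the labels imply, and the step differed by only -0.12 ± 0.30 (adjusted p = 0.95, limma). The lung markers Sftpc, a surfactant protein, and Scgb1a1, the club cell secretory protein, were bright on every array, at 10870 or above.

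After removal of dim probe sets, 24949 probe sets were tested, and the 20505 of them with 1 gene symbol represent 12836 genes. The step differed between genotypes at an adjusted p under 0.05 for 9 probe sets, 0.0361% of those tested. In 8 of them (0.0321%) the step was higher in the mutant, and in 1 (0.00401%) it was lower. At an unadjusted p under 0.05 there were 1795 probe sets, 7.19% of those tested. With 2 arrays in each group the test has little reach for modest differences. In data simulated from these arrays it recovered 12.4% of probe sets given a log2 step difference of 1, 73.1% of those given 2 and 92.9% of those given 3. The simulation drew normal noise and changed 201, 201 and 198 probe sets at these sizes, against 9 called here. More changed probe sets ease the adjusted threshold, so these shares may overstate the reach in the real data. The description below therefore also uses separated steps. Each genotype has 4 possible steps, every 72 h array minus every 48 h array, and steps are separated when all 4 of the mutant lie above or all 4 lie below those of wild type. This held for 20.8% of probe sets, and for 4.42% (1103 probe sets) together with a difference of at least 2-fold. Those 1103 were split into 552 with a higher and 551 with a lower step in the mutant. Separation is a description of the arrays and carries no test.

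Among the 1103, the step in the mutant exceeded 0.5 in size while that of wild type did not in 204 probe sets with a higher and 204 with a lower mutant step. The reverse, a step in wild type only, held for 172 and 163. Steps of opposite sign, both over 0.5 in size, were found in 164 and 165. Over all tested probe sets the steps of the genotypes correlated at 0.353 on type A, 0.439 on B and 0.144 on C. These are correlations across probe sets of the same arrays and carry no test.

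**Figure D1:**
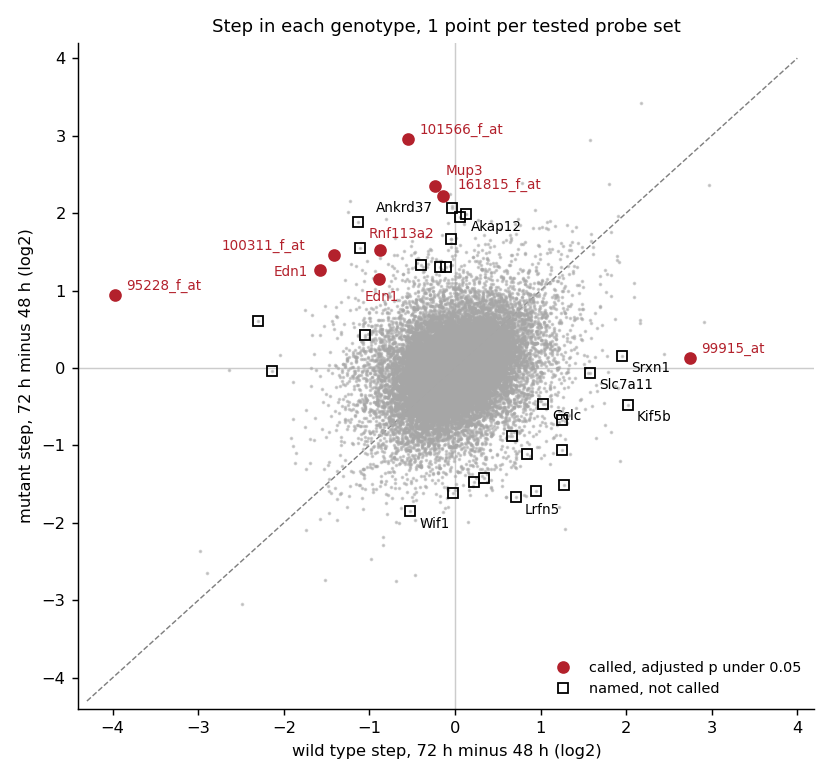
Step from 48 to 72 h in wild type (horizontal axis, log2) against the step in the mutant (vertical axis, log2), 1 point per tested probe set, with the dashed line marking equal steps. Filled red circles are the 9 called probe sets, and open squares are the genes not called among the 15 taken in each direction. The called points lie above the line except the 1 with a lower mutant step, and the Edn1 points lie in the upper left, where the steps have opposite signs.

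The endothelin 1 gene, Edn1, was the called gene with the brightest signal, and both of its probe sets passed the test. Endothelin 1 is a peptide made largely by endothelium and airway epithelium that constricts vessels and airways. Its first probe set read 2626 and 2352 in wild type at 48 h and 819 and 749 at 72 h. In the mutant it read 2052 and 1370 at 48 h and 4634 and 3685 at 72 h. The wild type arrays at 72 h were thus the lowest of the 8 and the mutant arrays at 72 h the highest, with no overlap between the groups at 72 h. The step was -1.58 in wild type and 1.26 in the mutant, a difference of 2.84 ± 0.32 (adjusted p = 0.046, limma). The other probe set read 3072 and 3633, then 1801 and 1741, in wild type, and 2238 and 2196, then 4986 and 4987, in the mutant. Its difference was 2.03 ± 0.23 (adjusted p = 0.0486). Both calls were lost when any 1 of the 8 replicates was left out. The differences then lay between 2.56 and 3.12 (adjusted p = 0.125 to 0.233) and between 1.91 and 2.15 (adjusted p = 0.183 to 0.267). The markers of endothelial cells as a list moved less. Their summed intensity was 108300 and 114400 in wild type at 48 h and 96370 and 93730 at 72 h, against 116900 and 105600, then 118100 and 115300, in the mutant. The part of endothelial RNA in the Edn1 result was not tested.

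The promoter windows of Edn1 and of 3 genes described further on are shown because their steps are described in detail and because NRF2 and the hypoxia-inducible factors bind short known motifs. Each is the 250 bases before 1 annotated start, from RefSeq on the mouse build GRCm38.p6, and 6 of 8 genes looked up had a window. That start is not always the outer end of the annotated gene. The windows of Ankrd37 and Slc7a11 lie inside the gene, and that of Gclm runs past the first base of the gene. Positions below are counted from the start used for the window. Capitals mark matches on either strand to TGACNNNGC, a form of the core of the antioxidant response element, and to ACGTG or GCGTG, the cores of the hypoxia response element. Other forms of these cores were not searched, so a window without a mark may still hold one. Edn1 lies at chr13:42301226-42301475 on the plus strand, Ankrd37 at chr8:45999851-46000100 on the minus strand, Srxn1 at chr2:152105274-152105523 and Gclm at chr3:122245307-122245556, both on the plus strand.
Edn1: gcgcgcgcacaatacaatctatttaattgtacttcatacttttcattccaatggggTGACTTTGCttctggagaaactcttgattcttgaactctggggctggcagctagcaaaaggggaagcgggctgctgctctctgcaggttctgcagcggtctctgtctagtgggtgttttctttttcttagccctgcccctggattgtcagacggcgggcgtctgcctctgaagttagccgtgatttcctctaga
Ankrd37: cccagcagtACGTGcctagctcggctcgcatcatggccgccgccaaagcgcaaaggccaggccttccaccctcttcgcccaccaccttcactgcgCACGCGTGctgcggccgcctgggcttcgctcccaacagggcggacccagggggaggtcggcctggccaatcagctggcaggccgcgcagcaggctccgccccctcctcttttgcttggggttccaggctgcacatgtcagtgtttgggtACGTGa
Srxn1: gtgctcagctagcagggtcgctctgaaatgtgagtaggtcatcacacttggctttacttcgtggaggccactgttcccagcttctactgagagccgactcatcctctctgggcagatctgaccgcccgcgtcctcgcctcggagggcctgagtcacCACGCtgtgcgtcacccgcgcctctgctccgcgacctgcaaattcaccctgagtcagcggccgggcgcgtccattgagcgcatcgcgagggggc
Gclm: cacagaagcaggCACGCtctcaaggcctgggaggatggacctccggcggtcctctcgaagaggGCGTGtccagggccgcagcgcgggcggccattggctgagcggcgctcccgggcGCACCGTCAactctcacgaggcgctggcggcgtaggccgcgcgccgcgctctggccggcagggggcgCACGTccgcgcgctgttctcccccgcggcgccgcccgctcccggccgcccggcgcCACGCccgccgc
The Edn1 window holds TGACNNNGC once, 194 to 186 bases before the start, and neither hypoxia core. The Ankrd37 window holds ACGTG at 241 to 237 and at 6 to 2 bases before the start, and GCGTG on both strands in an overlapping pair between 155 and 148. Of the motifs searched, the Srxn1 window holds only GCGTG, on the minus strand. It also holds TGAGTCAGC, which has G in place of the C of TGACNNNGC and was not marked. The window of Gclm, an NRF2 target with a lower mutant step, holds TGACNNNGC on the minus strand at 134 to 126 bases before the start and both hypoxia cores. The windows of Slc7a11 and Mup3 hold none of these motifs. Of 32851 windows of this length, 10.2% hold TGACNNNGC, 16.6% hold ACGTG and 28.2% hold GCGTG. A match is a description of letters and says nothing of binding.

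Mup3, a major urinary protein made chiefly by liver, was called. Its probe set read 162 and 126 in wild type at 48 h and 115 and 105 at 72 h. In the mutant it read 41.8 and 22.7 at 48 h and 550 and 405 at 72 h. The mutant arrays at 72 h were the highest and those at 48 h the lowest, and only the former passed the filter value of 192. The difference in step was 2.58 ± 0.28 (adjusted p = 0.0453). Without any 1 replicate it lay between 2.39 and 2.77 (adjusted p = 0.0973 to 0.233). The major urinary protein genes are near copies of each other, so the signal cannot be assigned to a single member. Other liver-made transcripts were examined after this value had been seen. Of 37 listed genes 15 were tested, Mup3 included. Of the 14 left without Mup3, 13 had a positive difference, 8 had separated steps with the mutant higher and 0 with it lower, and 0 were called. The separated ones include Serpina1b, Serpina1c and Serpina1e, members of the same gene family, and the positive ones include Mup5, another major urinary protein. Signals of such related genes may be shared, so these counts are not of independent genes. Over all 12836 genes, 6284 had a positive difference, and 10.2% had separated steps with the mutant higher. The list was chosen after values were seen, so its counts are a description. The median difference of the 14 genes was 0.82, from a median step of -0.26 in wild type and 0.57 in the mutant. Their summed intensity was 8211 and 8216 in wild type at 48 h, 6600 and 6740 at 72 h, 6441 and 6542 in the mutant at 48 h and 9510 and 8729 at 72 h. Albumin, Alb, read 246 and 400, then 266 and 256, in wild type and 237 and 170, then 737 and 591, in the mutant (difference 1.62 ± 0.33, adjusted p = 0.358). The part of liver RNA in the Mup3 result was not tested.

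Rnf113a2, a gene for a RING finger protein, was called. Its probe set read 346 and 308, then 120 and 124, in wild type and 104 and 159, then 561 and 640, in the mutant (difference 2.40 ± 0.24, adjusted p = 0.0407). Without any 1 replicate the difference lay between 2.24 and 2.56 (adjusted p = 0.127 to 0.233). Its other tested probe set had separated steps in the same direction, but a difference of 0.47. The remaining called probe sets have several symbols or none in the annotation and are given by their IDs in the plot of steps. The largest difference of all, 4.91 ± 0.29 (adjusted p = 0.0023), was at a probe set of array type A with several gene symbols in the annotation. It read 2084 and 2062 in wild type at 48 h and 51.4 and 70.6 at 72 h, against 662 and 976, then 1552 and 1677, in the mutant. A probe set not in the annotation used was the called one with a lower step in the mutant (-2.62 ± 0.27, adjusted p = 0.0407). It went from 162 and 132 to 1298 and 1544 in wild type, and the mutant read between 940 and 1206 at both times. Without any 1 replicate its difference lay between -2.78 and -2.47 (adjusted p = 0.109 to 0.206).

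By the naming rule, 15 genes with a higher and 15 with a lower step in the mutant were taken, the called genes first and then those of smallest p among genes with separated steps and a 2-fold difference. Those after the called genes missed the threshold and were chosen by this contrast, so their values are a description. Of the 30 genes, 15 had another tested probe set. In 9 of these 15 all other probe sets had the same sign, and in 8 at least 1 had separated steps in the same direction.

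On the side of a higher mutant step, Ankrd37, an ankyrin repeat protein gene known as a target of hypoxia-inducible factor 1, came first. It read 555 and 463, then 441 and 551, in wild type and 442 and 456, then 2374 and 2163, in the mutant. Only the mutant at 72 h stood apart, and the difference of 2.10 ± 0.24 missed the threshold (adjusted p = 0.0506). Akap12, a scaffold for protein kinase A, had the same shape. It read 2036 and 2214, then 1863 and 2630, in wild type and 2051 and 2036, then 7450 and 8901, in the mutant (difference 1.90, adjusted p = 0.154), and its other probe set gave 0.71 with separated steps. The adhesion receptor gene Adgrg3 read 478 to 591 on the 4 wild type arrays, and 295 and 282, then 1299 and 1444, in the mutant (difference 1.86, adjusted p = 0.0679). The other probe set of Adgrg3 gave 0.58 with overlapping steps. Il1r2, the decoy receptor for interleukin 1, read 795 to 1001 on all wild type arrays. In the mutant it read 198 and 209, then 591 and 635, so the mutant stayed below wild type at 72 h while its step was higher by 1.47. The other probe set of Il1r2 gave 1.44.

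In Errfi1, Ang4 and Cbx3 wild type had the larger step or a step of opposite sign. Errfi1, a feedback inhibitor of the epidermal growth factor receptor, read 5345 and 4860, then 2319 and 2528, in wild type and 4498 and 3967, then 6325 and 5127, in the mutant (difference 1.48, adjusted p = 0.23). Its second probe set gave 0.78 with separated steps. Ang4, of the angiogenin family, differed by 2.10 at the probe set of the naming rule, where the wild type arrays at 72 h were at 26.4 and 12.8, and by 0.13 at its other probe set. Cbx3, a heterochromatin protein, differed by 3.02, with 422 and 349, then 123 and 113, in wild type and 123 and 80.5, then 621 and 694, in the mutant (adjusted p = 0.0732). In Col18a1 and St6galnac2 wild type was nearly level. Col18a1, collagen XVIII, the source of endostatin, differed by 1.71, with 78.2 or less on all wild type arrays and 123 and 105, then 528 and 524, in the mutant. Only the mutant arrays at 72 h passed the filter value of 192, and the wild type readings lay near the added constant of 76.2. This probe set was thus tested only through the group where it was high. The 3 other probe sets of Col18a1 ranged from -0.59 to 0.99. St6galnac2, a sialyltransferase, differed by 1.41, and Rbck1, of the linear ubiquitin ligase, by 1.73, although 6 of its 13 other probe sets had the opposite sign.

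**Figure D2:**
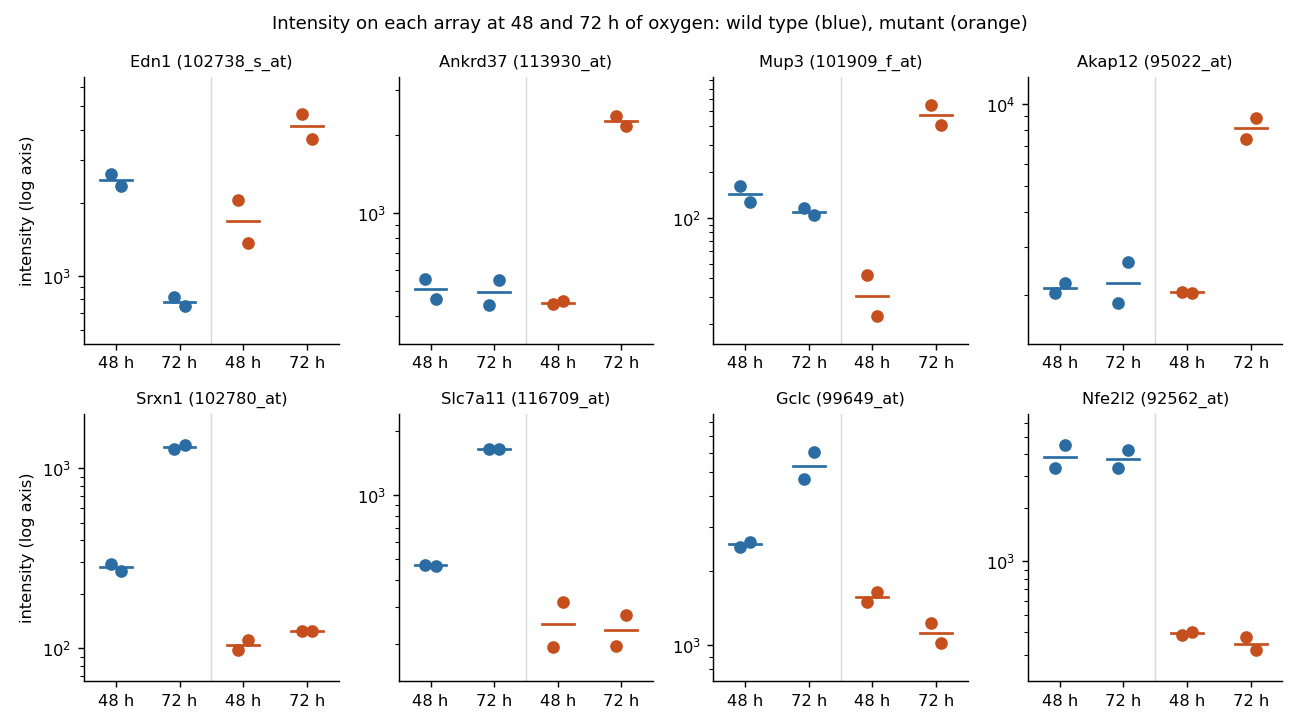
Intensity (log axis) of 8 genes on each array at 48 and 72 h, wild type in blue and mutant in orange. Points are arrays 1a and 1b and bars their geometric mean. Ankrd37 and Akap12 stand out at 72 h in the mutant, Srxn1, Slc7a11 and Gclc at 72 h in wild type, and Nfe2l2 is lower in the mutant at both times.

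On the side of a lower mutant step Srxn1 came first, and Slc7a11 and Gclc were among the 15. All 3 are known NRF2 targets. Srxn1, sulfiredoxin, which restores oxidised peroxiredoxins, read 295 and 269 in wild type at 48 h and 1283 and 1342 at 72 h. The mutant read 97.8 and 112 at 48 h and 125 and 125 at 72 h, below the filter value. The difference was -1.80 ± 0.22 (adjusted p = 0.0679). A second, brighter probe set ran the other way, with 401 to 482 on all wild type arrays, 409 and 392, then 544 and 544, in the mutant and a difference of 0.45. Slc7a11, the cystine and glutamate exchanger that supplies cysteine for glutathione, read 472 and 465, then 1646 and 1642, in wild type and 195 and 317, then 197 and 275, in the mutant (difference -1.65 ± 0.29, adjusted p = 0.24). Gclc, the catalytic subunit of glutamate cysteine ligase, which makes the first step of glutathione, read 2502 and 2618, then 4688 and 6032, in wild type. The mutant read 1504 and 1651, then 1237 and 1021 (difference -1.49 ± 0.27, adjusted p = 0.268). The other probe set of Gclc gave -0.59 with overlapping steps. For each of these 3 genes at these probe sets the wild type arrays at 72 h were the highest of all, and the mutant was below wild type at both times.

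Wif1, a secreted inhibitor of WNT proteins, read 4391 and 4342, then 3221 and 2792, in wild type and 5815 and 5414, then 1445 and 1494, in the mutant (difference -1.33 ± 0.22, adjusted p = 0.216). Rsrp1 read 2423 to 3074 on the wild type arrays and 4159 and 4707, then 1386 and 1403, in the mutant. Tmem252, a membrane protein gene, read 1820 and 1734, then 2433 and 2118, in wild type and 1240 and 928, then 352 and 299, in the mutant. Fbp2, fructose bisphosphatase of muscle, read 231 to 340 in wild type and 967 and 1105, then 332 and 313, in the mutant, so the genotypes were alike at 72 h and apart at 48 h. Kif5b, a kinesin, differed by -2.50, while the highest of its 3 other probe sets was at 0.06 and all 3 overlapped.

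Lists of genes of known pathways and of cell type markers were then read, each gene by its brightest tested probe set. No list held a called gene by that probe set. As background, steps were separated with the mutant higher in 10.2% of all 12836 genes and with the mutant lower in 12.1%, and the median difference over all genes was -0.01. Where counts of separated members are given, they stand against these shares, and the lists carry no test.

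The NRF2 targets of glutathione and detoxification, 34 of 38 listed genes tested, had 6 members with a lower and 1 with a higher mutant step. Besides Slc7a11 and Gclc, the lower ones were Gclm, Gstp1, Gsta4 and Nqo1, and 24 of the 34 differences were negative, with a median of -0.19. Gclm, the modifier subunit of glutamate cysteine ligase, read 780 and 1192, then 1859 and 2630, in wild type and 556 and 873, then 643 and 632, in the mutant (difference -1.25 ± 0.39, adjusted p = 0.57). Gpx2, an epithelial glutathione peroxidase, was far apart between genotypes at both times. It read 3296 and 2842, then 4900 and 4085, in wild type and 555 and 525, then 558 and 686, in the mutant, but the steps overlapped. Nqo1, a quinone reductase, read 196 and 220, then 296 and 279, in wild type. In the mutant it read 54.9 to 108, below the filter value of 192. The step difference was -0.43 ± 0.29 by the brighter Nqo1 probe set. Its other probe set gave -1.22 ± 0.25 with separated steps.

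NRF2 targets that serve redox balance, iron handling or NADPH supply, 13 of 17 tested, had 7 members separated downward and 1 upward, and a median of -0.32. The 1 upward member was Srxn1 by its brighter probe set, opposite to the probe set described above. The median step was 0.30 in wild type and 0.02 in the mutant. Txnrd1, thioredoxin reductase, read 2015 and 2340, then 3800 and 4699, in wild type and 952 and 995, then 1359 and 1104, in the mutant (difference -0.63 ± 0.27, adjusted p = 0.69). Osgin1, an oxidative stress growth inhibitor, read 389 and 433, then 860 and 1127, in wild type and 36.3 to 91.4 in the mutant. Its mutant readings were all below the filter value of 267 and the added constant of 121. Blvrb, biliverdin reductase B of heme breakdown, read 4509 and 5764, then 8558 and 11320, in wild type and 4230 and 6400, then 2985 and 4907, in the mutant. Me1, malic enzyme, Taldo1, transaldolase, Tkt, transketolase, and Slc48a1, a heme transporter, were the other members separated downward. Hmox1, heme oxygenase 1, did not follow. It read 5244 and 5112, then 8586 and 5329, in wild type and 4319 and 3152, then 5592 and 4541, in the mutant, a step difference of 0.06 ± 0.37.

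Antioxidant enzymes outside the NRF2 lists split evenly, with 7 positive and 7 negative differences among 14 members and a median of 0.03 that ran from -0.08 to 0.30 over the alternatives. Steps were separated upward in 3 members and downward in 0. Sod3, extracellular superoxide dismutase, read 9987 and 8774, then 5433 and 3762, in wild type and 9679 and 8584, then 10070 and 8631, in the mutant (difference 1.07 ± 0.31, adjusted p = 0.53). The wild type arrays at 72 h were thus the only low ones.

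Targets of hypoxia-inducible factors encode glycolytic enzymes, oxygen sensors and regulators of growth of vessels. Of 26 listed genes 23 were tested, 6 were separated with the mutant higher and 0 with it lower, and the median difference was 0.28. Besides Ankrd37 they were Bnip3, Car9, Egln1, Ldha and Tpi1. Bnip3, a mitophagy receptor, read 984 and 899, then 621 and 380, in wild type and 413 and 311, then 565 and 476, in the mutant (difference 1.30 ± 0.34, adjusted p = 0.475). Car9, carbonic anhydrase 9, read 471 and 571, then 477 and 314, in wild type and 292 and 308, then 628 and 556, in the mutant. Ldha, lactate dehydrogenase A, read 7836 and 7761, then 7116 and 7101, in wild type and 6669 and 5847, then 8749 and 7898, in the mutant. In Bnip3, Car9 and Ldha the mutant was below wild type at 48 h. The classical members Pgk1, Slc2a1, Vegfa and Egln3 had overlapping steps.

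**Figure D3:**
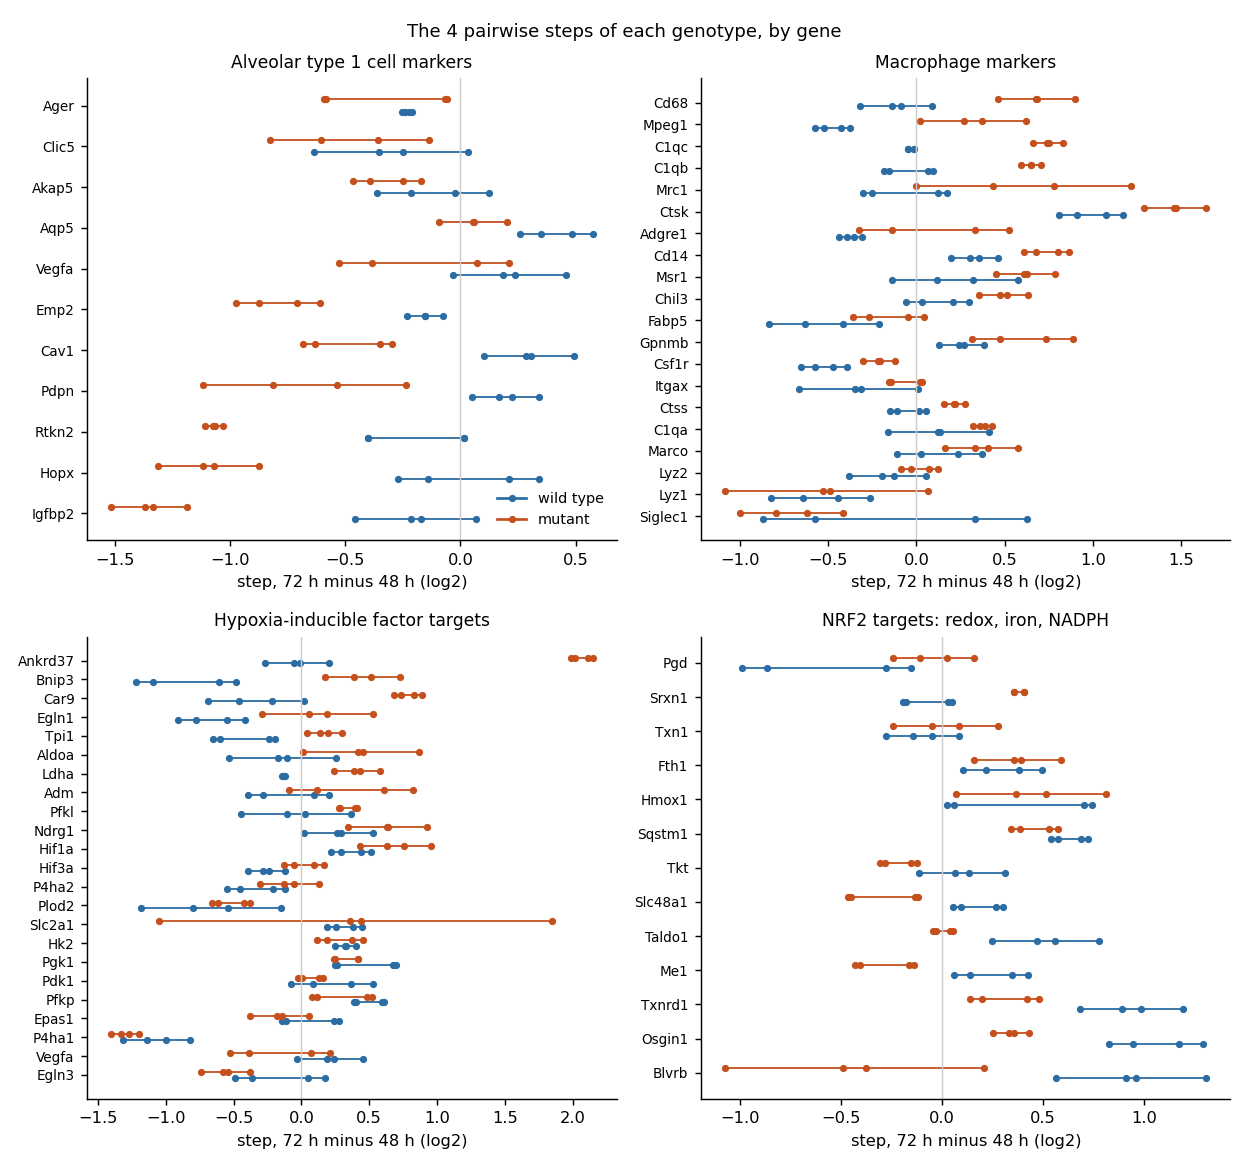
The 4 pairwise steps from 48 to 72 h (log2) of each genotype for the tested members of 4 lists, wild type in blue and mutant in orange, with a line over their range. Alveolar type 1 markers lie further left in the mutant, most macrophage markers further right, and Ankrd37 stands apart from the other hypoxia-inducible factor targets.

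Markers of alveolar type 1 cells, the flat cells across which gas is exchanged, shared a direction. All 11 listed genes were tested, 11 of 11 differences were negative, and 7 had steps separated with the mutant lower and 0 with it higher. The median difference was -0.64, with a median step of -0.12 in wild type and -0.49 in the mutant. Hopx, a homeodomain protein of these cells, read 10980 and 15390, then 12740 and 13940, in wild type and 15030 and 13120, then 7130 and 6007, in the mutant (difference -1.13 ± 0.30, adjusted p = 0.49). The mutant arrays at 72 h were the only low ones. Igfbp2, an insulin-like growth factor binding protein, read 2912 and 2451, then 2576 and 2102, in wild type and 3271 and 2946, then 1096 and 1252, in the mutant (difference -1.16 ± 0.27, adjusted p = 0.41). Rtkn2 read 511 to 724 in wild type and 1025 and 1061, then 427 and 441, in the mutant. Cav1, caveolin 1, which is abundant in endothelium too, read 6900 and 5968, then 8418 and 7406, in wild type and 9484 and 9843, then 6103 and 7717, in the mutant. Emp2, Pdpn and Aqp5 were also separated, and Ager, the most used marker of these cells, overlapped with a difference of -0.09. The summed intensity of the 11 genes was 102200 and 112600, then 96390 and 100400, in wild type and 128400 on both arrays, then 84440 and 90230, in the mutant.

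Alveolar type 2 cells make surfactant and renew type 1 cells. Of their 12 markers 5 were separated with the mutant lower and 0 with it higher, with a median of -0.25. Abca3, the lipid pump of lamellar bodies, read 11990 and 10970, then 8000 and 7573, in wild type and 12260 and 11640, then 6133 and 5206, in the mutant (difference -0.51 ± 0.23, adjusted p = 0.70). Slc34a2, a phosphate transporter, Lpcat1, an enzyme of surfactant lipid, Lamp3 and Cd36 were the others. The surfactant proteins Sftpa1, Sftpb, Sftpc and Sftpd overlapped. Of the 12 differences 8 were negative and 4 positive, so the members of the list did not share a direction. Genes of alveolar fluid transport and junctions had 7 of 22 members separated downward and 0 upward. Scnn1g, a subunit of the epithelial sodium channel, read 13850 and 17680, then 18700 and 21660, in wild type and 22560 and 25040, then 14580 and 11810, in the mutant (difference -1.21 ± 0.37, adjusted p = 0.58). Cldn4, a claudin, read 252 and 330, then 1364 and 1088, in wild type and 376 and 321, then 557 and 956, in the mutant.

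Macrophage markers leaned to a higher mutant step. Of 24 listed genes 20 were tested, 19 differences were positive, 9 were separated upward and 0 downward, and the median was 0.37. C1qc, a chain of complement C1q, read 2242 and 2243, then 2166 and 2217, in wild type and 2019 and 2155, then 3653 and 3455, in the mutant (difference 0.78 ± 0.22, adjusted p = 0.53). Cd68, a lysosomal protein of macrophages, read 2590 and 2945, then 2762 and 2344, in wild type and 2155 and 2531, then 4089 and 3514, in the mutant. In both genes only the mutant at 72 h stood apart. Mpeg1, a pore-forming protein, read 8455 and 8762, then 5867 and 6505, in wild type and 4086 and 5241, then 5306 and 6338, in the mutant, so there the genotypes differed at 48 h. The summed intensity of the 20 genes, dominated by the brightest, overlapped between the groups and ranged from 119200 to 165400.

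Neutrophil markers, 14 of 23 tested, had 5 members separated upward and 0 downward and a median of 0.35. Their level was lower in the mutant at both times. Summed intensity was 25100 and 25420, then 22430 and 23240, in wild type and 8061 and 7824, then 8428 and 9782, in the mutant. The gene S100a8 encodes an abundant calcium-binding protein of neutrophils. It read 9822 and 9647, then 9256 and 8710, in wild type and 1635 and 1561, then 2079 and 2151, in the mutant. Its step difference was 0.50 ± 0.22 (adjusted p = 0.70). Mmp8, neutrophil collagenase, read 826 and 1430, then 669 and 1328, in wild type and 114 and 58.9, then 273 and 423, in the mutant (difference 1.57 ± 0.52). B cell genes split. Ms4a1, which encodes CD20, read 813 and 822, then 1098 and 1129, in wild type and 1081 and 1744, then 489 and 786, in the mutant, Cd79b and Ighm were also separated downward, and Ighd was separated upward.

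**Figure D4:**
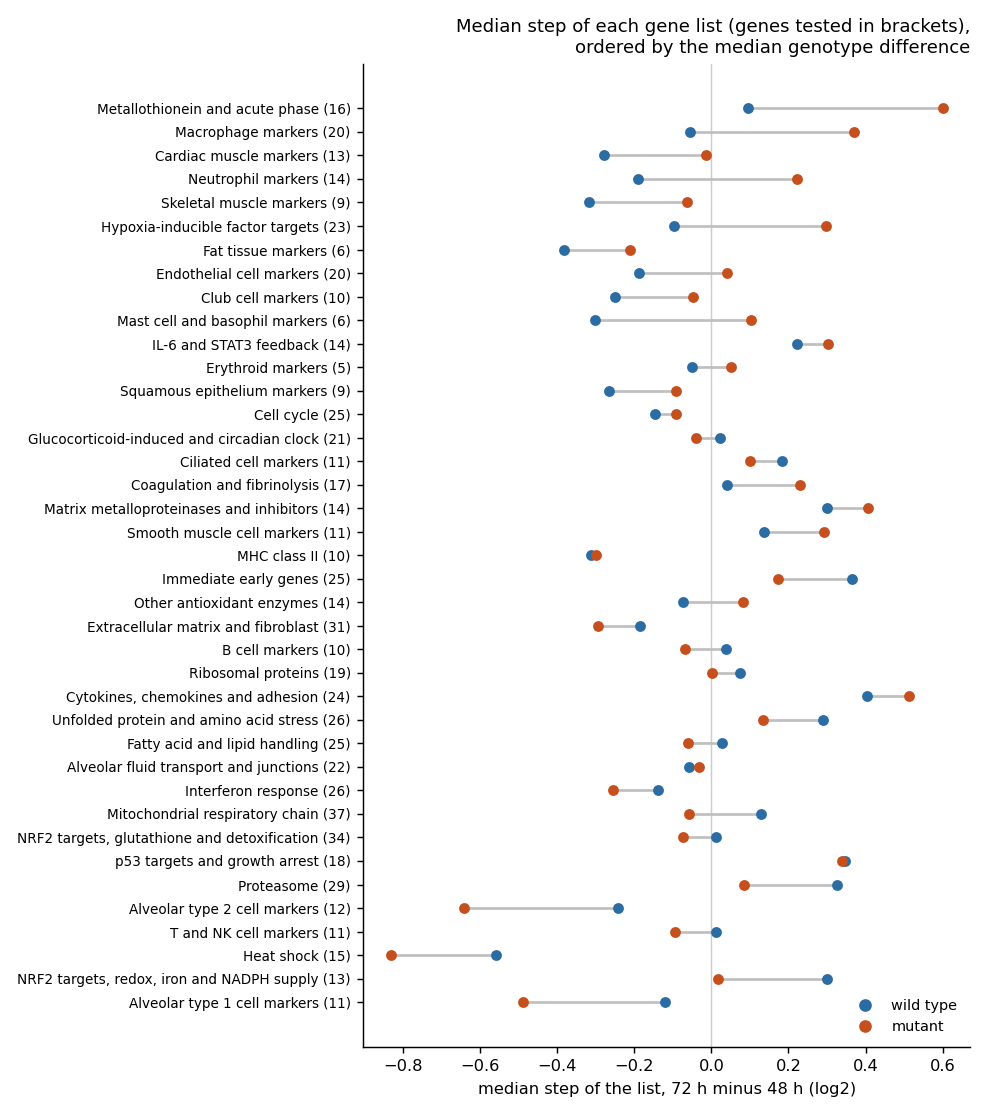
Median step from 48 to 72 h (log2) of each of the 39 gene lists in wild type (blue) and in the mutant (orange), with the number of tested genes in brackets, ordered by the median of the members' genotype differences. Alveolar type 1 markers lie at the bottom and the metallothionein and acute phase list at the top.

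Acute phase genes encode proteins of the early systemic response to injury, and metallothioneins bind zinc and copper. In that list 7 of 16 tested members were separated with the mutant higher and 2 with it lower, with a median of 0.51. Timp1, the inhibitor of metalloproteinases, read 4735 and 3907, then 4767 and 3530, in wild type and 4397 and 3496, then 8594 and 8313, in the mutant (difference 1.16 ± 0.30, adjusted p = 0.48). Saa3, serum amyloid A3, read 3432 and 3213, then 7067 and 7041, in wild type and 2147 and 1416, then 6875 and 6414, in the mutant, so the genotypes were near each other at 72 h. Lcn2, lipocalin 2, which withholds iron from bacteria, ran the other way. It read 2218 and 1608, then 6311 and 7013, in wild type and 4904 and 5147, then 4418 and 7075, in the mutant (difference -1.62 ± 0.36, adjusted p = 0.40). The mutant was already high at 48 h. Fga and Hpx, which liver makes in quantity, are shared with the liver list above. Mt1 had overlapping steps, with a difference of 0.54 ± 0.37.

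Several stress and cytokine genes had the shape of Lcn2, with the mutant above wild type at 48 h and the genotypes nearer to each other at 72 h. Il6, interleukin 6, read 56.3 and 12.0, then 171 and 172, in wild type and 153 and 187, then 203 and 222, in the mutant. Only the mutant arrays at 72 h were above the filter value of 192, so its levels at 48 h are near or below the dim limit. Cxcl1, a chemokine for neutrophils, read 633 and 473, then 1900 and 1816, in wild type and 1067 and 934, then 1682 and 1679, in the mutant (difference -0.92 ± 0.26, adjusted p = 0.53). Atf3, a transcription factor of stress, read 1113 and 1200, then 2712 and 2741, in wild type and 2577 and 2700, then 3447 and 3753, in the mutant. Chac1, which degrades glutathione, and Trib3, both targets of the ATF4 pathway, differed by -0.81 and -0.64. In the list of unfolded protein and amino acid stress 7 of 26 members were separated downward and 2 upward, and in the cytokine list 4 of 24 downward and 5 upward. Ccl9, a chemokine for myeloid cells, was among the latter. It read 4503 and 4730, then 3118 and 3938, in wild type and 1336 and 1330, then 2438 and 3136, in the mutant (difference 1.40 ± 0.28, adjusted p = 0.34).

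Heat shock chaperones refold damaged proteins. Of 15 members 5 were separated downward and 2 upward, with a median of -0.30. Dnajb1, a co-chaperone of HSP70, read 2021 and 1596, then 913 and 839, in wild type and 5057 and 3975, then 832 and 679, in the mutant (difference -1.49 ± 0.29, adjusted p = 0.34). The genotypes were apart at 48 h and alike at 72 h. Hspe1, the mitochondrial HSP10, read 2852 and 3220, then 2564 and 3826, in wild type and 4434 and 5245, then 1916 and 2272, in the mutant.

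Genes induced by glucocorticoids or belonging to the circadian clock had 7 of 21 members separated upward and 0 downward. The median difference was 0.13, although the median step was lower in the mutant (-0.04) than in wild type (0.02). Per1, a clock gene that glucocorticoids induce, read 2031 and 1819, then 925 and 843, in wild type and 1441 and 1686, then 1460 and 1617, in the mutant (difference 1.04 ± 0.24, adjusted p = 0.42). Angptl4, an inhibitor of lipoprotein lipase, read 855 and 901, then 1122 and 1154, in wild type and 834 and 759, then 1961 and 1821, in the mutant. The labels give no hour of the day for the samples.

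Most differences of energy and protein turnover genes were negative, and 0 members were called. In the mitochondrial respiratory chain 29 of 37 differences were negative, 10 members were separated downward and 2 upward, and the median was -0.19. In the proteasome 23 of 29 were negative, 6 were separated downward and 1 upward, and the median was -0.24. Ribosomal proteins, with 1 of 19 separated upward and 0 downward and a median of -0.07, lay near the median of all genes. Matrix and fibroblast genes had 7 of 31 separated upward and 5 downward and a median of 0.02. Tnc, tenascin C, a matrix protein of repair, was among the former and read 111 and 126, then 285 and 398, in wild type and 275 and 311, then 1244 and 1164, in the mutant. MHC class II genes had 0 of 10 members separated in either direction.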

How the data were processed

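Lung RNA of the 4 groups was measured on 3 types of oligonucleotide array. The deposited values are linear intensities, 1 per probe set and array, which the authors had scaled to a 2%-trimmed mean between 800.18 and 800.46. Which tool and genome build they used is not given in the sources used here. Control probe sets were removed. For each array type its 25th percentile was added to the intensities before log2 was taken, and a probe set was kept if above the 40th percentile (191.7, 267 and 208.5 on A, B and C) on at least 2 of 8 arrays.

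Each array type was fitted with limma 3.58.1 in R 4.3.3 (lmFit, contrasts.fit, eBayes), with 1 mean per group. P-values are two-sided, adjusted by Benjamini-Hochberg over all 3 types, and errors are SE from the fit. Symbols came from the array annotation, updated through gene IDs. Of the tested probe sets 20505 carried 1 symbol, 514 had several and 3930 had none there. The number of arrays limits the precision.

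Named genes were Nfe2l2, 15 genes per direction as described, up to 4 members of each of 39 lists by smallest p, and a few NRF2, lung and stress genes; not all are printed. Members and lists were chosen with earlier results of these data known. The 0 h and 24 h arrays entered only an alternative. No label says that the letters pair samples, and they were not used as a block. The method was tested on simulated data. Alternatives varied the scale, the added value, the normalization, the filter, the arrays, the variance model, the adjustment and the replicates.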

Additional observations from a re-analysis of the deposited data

Results flagged for a closer look

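The step from 48 to 72 h differed between genotypes by the test of the difference itself (limma, adjusted p under 0.05) at 9 probe sets. The differences were 2.84 and 2.03 for Edn1, 2.58 for Mup3, 2.40 for Rnf113a2 and 4.91 for the probe set with several symbols. At 4 probe sets not in the annotation used, all of array type A, they were 3.50, 2.88, 2.36 and -2.62. In all 9 the 4 mutant steps lay apart from the 4 wild type steps. The probe set at 3.50 read 212 and 168, then 92.4 and 120, in wild type and 61.7 and 66.5, then 830.5 and 1227, in the mutant. The probe set at 2.88 read 2881 and 3507, then 1233 and 1063, in wild type and 1806 and 2070, then 5402 and 5512, in the mutant. The probe set at 2.36 read 206 and 153, then 135 and 176, in wild type and 119 and 120, then 802 and 873, in the mutant.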

How the results depend on the processing

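Against 9 called probe sets, 5 were called when intensities below the 25th percentile were raised to it and nothing was added, 5 with the 10th percentile added, 1 with no filter, 14 with a filter at the 60th percentile and 5 with the replicate block (letters 1a and 1b as a block). The block kept Mup3 and 1 Edn1 probe set (both adjusted p = 0.0295), but not the other Edn1 probe set (0.0722) or Rnf113a2 (0.0627). Deviations of same-letter arrays correlated positively in 18 of 18 group pairs (0.018 to 0.382), over 0.1 in 5 of 6 on type A, 6 of 6 on B and 0 of 6 on C. Leaving out each replicate in turn left 1 to 2 calls, and of the 9 only the probe set with several symbols was called under each of its 18 alternatives. The 1103 probe sets with separated steps and a 2-fold difference became 611 with the filter at the 60th percentile and 230 on array type A alone, where fewer were tested, and 1622 to 2092 with a replicate left out, where fewer steps are compared. The difference of Nfe2l2 ran from -0.3245 to 0.09422 and that of Hmox1 from -0.28 to 0.40 with a replicate left out. Of 585 list medians under alternatives, 554 kept their sign. The number of arrays limits what could be called.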

Other observations

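Because Edn1 was called, other vasoactive peptides with their enzymes and receptors were examined, in a list chosen after the values had been seen. Of 27 listed genes 18 were tested, 6 were separated with the mutant higher, Edn1 included, and 4 with it lower. Besides Edn1, those with the mutant higher were Ace, Nos3, Nppb (difference 0.91), Nppa (0.42) and Ramp1 (0.38). Over all genes these shares were 10.2% and 12.1%. Ace, which converts angiotensin I and degrades bradykinin, read 3923 and 3380, then 1627 and 1763, in wild type and 3174 and 3048, then 2841 and 4918, in the mutant (difference 1.33). Its other probe set gave 0.82. Adm, adrenomedullin, a vessel-relaxing peptide, read 264 and 359, then 973 and 1178, in wild type and 308 and 371, then 3034 and 3202, in the mutant (difference 1.37). Its other probe set, on array type C and used for the counts by its higher mean log2 value, gave 0.46 with overlapping steps. That probe set was the brighter at 48 h and the dimmer at 72 h. Nos3, endothelial nitric oxide synthase, read 88.9 and 66.7, then 74.6 and 169, in wild type and 136 and 88.0, then 367 and 489, in the mutant. Only the mutant arrays at 72 h passed the filter value of 192, so Nos3 was tested only through the group where it was high.

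The 4 members separated with the mutant lower were Npr3, Edn3, and Gucy1b1 and Gucy1a1, subunits of soluble guanylate cyclase, the receptor for nitric oxide. Npr3 read 2389 and 2464, then 2002 and 2101, in wild type and 1923 and 1935, then 525 and 708.5, in the mutant (difference -1.255). Its other probe sets gave -0.11, -0.82 and -1.01. Edn3 differed by -0.54. Gucy1b1 read 5411 and 5309, then 4804 and 5075, in wild type and 7650 and 5524, then 3435 and 2255, in the mutant (difference -1.07), and its other probe set gave -0.83. Gucy1a1 read 1877 and 1846, then 1124 and 1219, in wild type and 2466 and 1941, then 693 and 813, in the mutant (difference -0.79). None of these genes other than Edn1 was called.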
